A study of Homo sapiens with 6 samples.

Results

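The proteasome genes were followed in SW620, an established line of human colorectal cancer cells derived from a metastatic lymph node. The cells expressed hairpin RNA directed at ECM1 in 3 libraries (shECM1) and a non-targeting control hairpin in the other 3 (shNC). ECM1 encodes a secreted protein of the extracellular matrix. Whether either group was 1 clone or a pool of transduced cells is not given in the sources used here, and neither is the hairpin's sequence. Members were taken by symbol, as PSMA to PSMG followed by a number, which gave 48 of the 20476 gene rows of the deposited table. They comprised 16 genes of the core particle, 20 of the regulatory cap, 3 immunoproteasome subunits, 5 activators and inhibitors and 4 assembly chaperones. The family was proposed with results of this contrast known, so all differences between shECM1 and shNC below are descriptions and carry no test of the family.

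The proteasome is the protease that degrades proteins marked with ubiquitin. Its barrel-shaped core particle is built from outer rings of alpha subunits (PSMA genes), which gate the entrance, and inner rings of beta subunits (PSMB genes), some of which cut peptide bonds. The cap recognises ubiquitin, removes it and unfolds the substrate with a ring of ATPases (PSMC genes) and a set of other subunits (PSMD genes). In cells exposed to interferon-gamma, the catalytic subunits PSMB5, PSMB6 and PSMB7 are replaced by PSMB8, PSMB9 and PSMB10, which favours peptides that fit MHC class I molecules. Lymphoid tissues are rich in this immunoproteasome, and the intestine holds both forms.

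The libraries held 9881720 to 16813951 counts in shECM1 and 11792872 to 14781799 in shNC. ECM1 stood at 8.41 to 14.8 CPM (counts scaled to a common library size) in shECM1. It was at 38.8, 19.0 and 52.3 CPM in shNC replicates 1, 2 and 3, without overlap. All CPM are scaled by the trimmed mean of M values (TMM). The control libraries were not alike: the first principal component, with 58.15% of the variance, placed shNC replicate 2 at 8.64, the shECM1 libraries at 16.6 to 23.3 and the other shNC libraries at -41.3 and -25.2. Values without shNC replicate 2 are therefore given where a result rests on it. That library was singled out by its closeness to the shECM1 libraries, so leaving it out tends to widen the contrast. Calls made without it are descriptions and carry no added support. Of the fixed epithelial markers, KRT8, KRT18, EPCAM, VIL1 and CDH1 were abundant, while KRT20 averaged 1.27 CPM over the 6 libraries, LGALS4 averaged 0.826 CPM and CDX1 averaged 0.0119 CPM. PTPRC, CD3E, MS4A1 and HLA-DRA of the leukocyte markers, PDGFRA and COL3A1 of the fibroblast markers and KDR of the endothelial markers had 0 counts in every library. Others of these lists were present, among them CD68 with means of 58.6 CPM in shECM1 and 121.1 CPM in shNC, and COL1A1 with 8.38 CPM in shECM1 and 17.6 CPM in shNC. LYZ, LUM and VWF averaged 5.57, 9.23 and 6.11 CPM in shECM1 and 10.9, 10.8 and 7.83 CPM in shNC. In a bulk measurement of this kind, fewer cells of a type and less RNA per cell cannot be told apart.

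Most proteasome genes were slightly higher in shECM1 cells than in shNC cells. Summed over all 48 members, the level was 6638, 7005 and 6956 CPM in shECM1 replicates 1, 2 and 3, against 6078, 6311 and 6261 CPM in shNC replicates 1, 2 and 3. Every shECM1 library lay above every shNC library, and the mean of 6866 ± 199 CPM in shECM1 was 1.10 times the mean of 6217 ± 123 CPM in shNC (SD, n = 3 each). Without shNC replicate 2 the ratio was 1.11. Of the 48 members, 45 had enough counts to be tested. Among these 45, the log2 fold change (shECM1 minus shNC) was positive in 41 and negative in 4, and without shECM1 replicate 3 it was positive in 36 and negative in 9. In the fit of all 6 libraries its median was 0.15, beside 0.01 for all 12576 genes tested, of which 51.4% were positive. Among the 1451 genes of similar level, those within the members' quartiles of mean log2 CPM, the median was 0.02 and 53.3% were positive.

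The differences of single members were small. At a Benjamini-Hochberg adjusted p under 0.05, the quasi-likelihood test of edgeR called 0 of the 45 members, beside 0% of all genes tested. At an unadjusted p under 0.05, 5 members were higher in shECM1 (8.31% of all genes) and 0 were lower (14.2% of all genes). That count depended on single libraries: 12 members were higher without shECM1 replicate 3 (9.51% of all genes), 3 without shECM1 replicate 2 (4.1%) and 3 without shNC replicate 1 (3.19%). Without shNC replicate 2, 16 were higher (17.3%) and 1 was lower (20%). DESeq2 called 1 member, PSMG1, higher (1.04% of all genes given an adjusted p), and limma-voom called 0 members (0% of all genes). In 13 members all shECM1 libraries lay above all shNC libraries (11.2% of all genes), and in 0 members all lay below (13.2% of all genes). Without shNC replicate 2, edgeR called PSMA3, PSMA4, PSMA6 and PSMG1 higher (9.73% of all genes) and PSMB9 lower (14.1% of all genes), while DESeq2 on those 5 libraries called 4 members higher (8.45%) and 0 lower (12.5%). Only PSMG1 and PSMB9 had a log2 fold change beyond 0.4 in either direction in the fit of all 6 libraries. The standard errors (SE) of the members' fold changes ran from 0.09 to 0.27, so that most single differences were within 2 SE of 0.

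**Figure D1:**
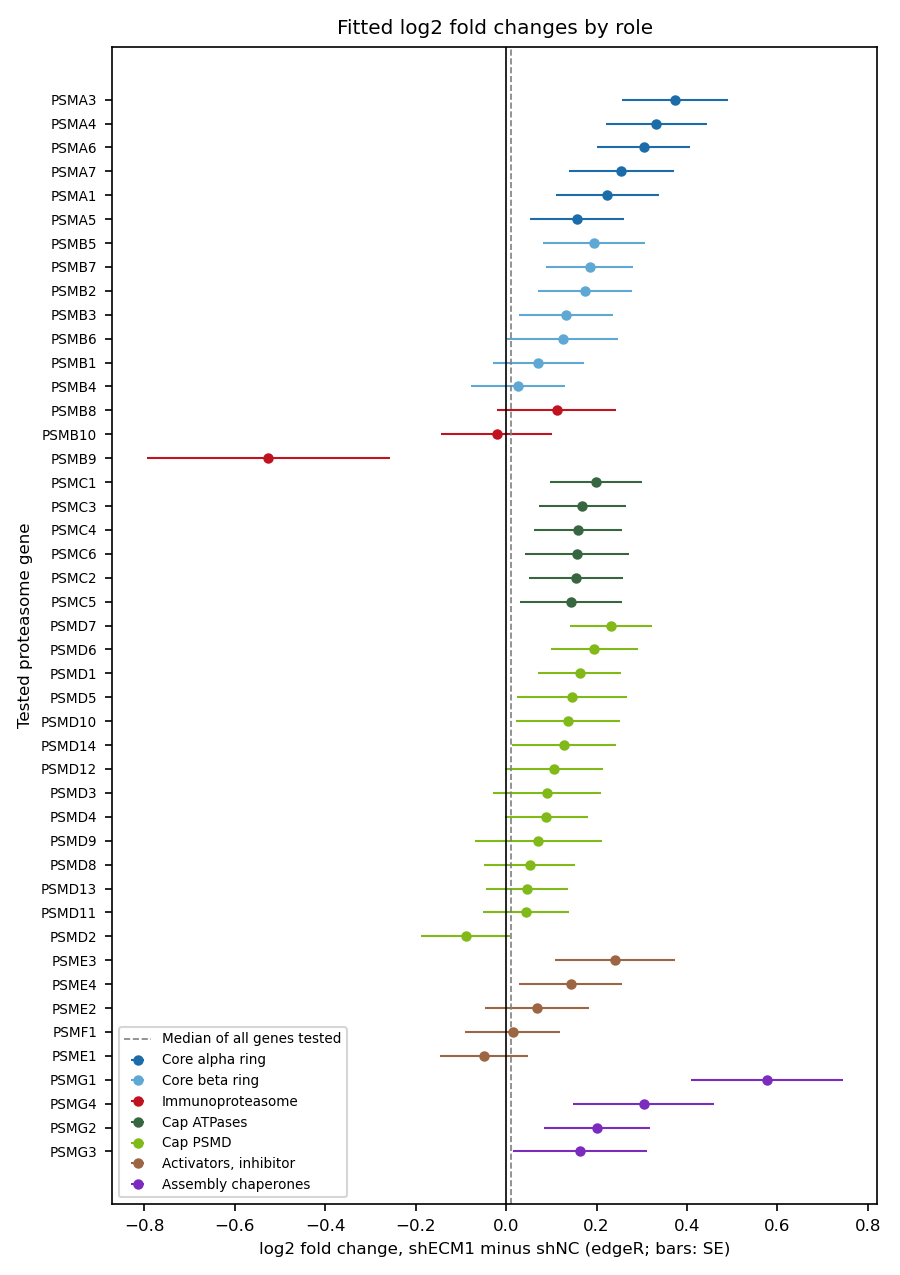
Fitted log2 fold change (shECM1 minus shNC, horizontal axis) of each of the 45 tested proteasome genes (vertical axis), grouped by role, with bars of 1 SE from edgeR and a dashed line at the median of all genes tested. In 41 members the value lies right of 0, PSMG1 lies farthest to the right and PSMB9 farthest to the left.

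The difference was not uniform across libraries. Relative to each gene's mean over the 6 libraries, the median member lay at -0.003, 0.10 and 0.09 (log2 CPM) in shECM1 replicates 1, 2 and 3, and at -0.10, -0.05 and -0.08 in shNC replicates 1, 2 and 3. All 3 shECM1 medians were above all 3 shNC medians, and shECM1 replicate 1 was the closest to the controls. Of the 45 tested members, 22, 37 and 32 were above their own mean in shECM1 replicates 1, 2 and 3, and 8, 12 and 11 in shNC replicates 1, 2 and 3. The library shNC replicate 2 was the highest of the 3 shNC libraries in 25 members, and in 24 members it lay within the range of the shECM1 libraries. Without it the median log2 fold change of the members was 0.18, and leaving out any single library gave 0.13 to 0.19.

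**Figure D2:**
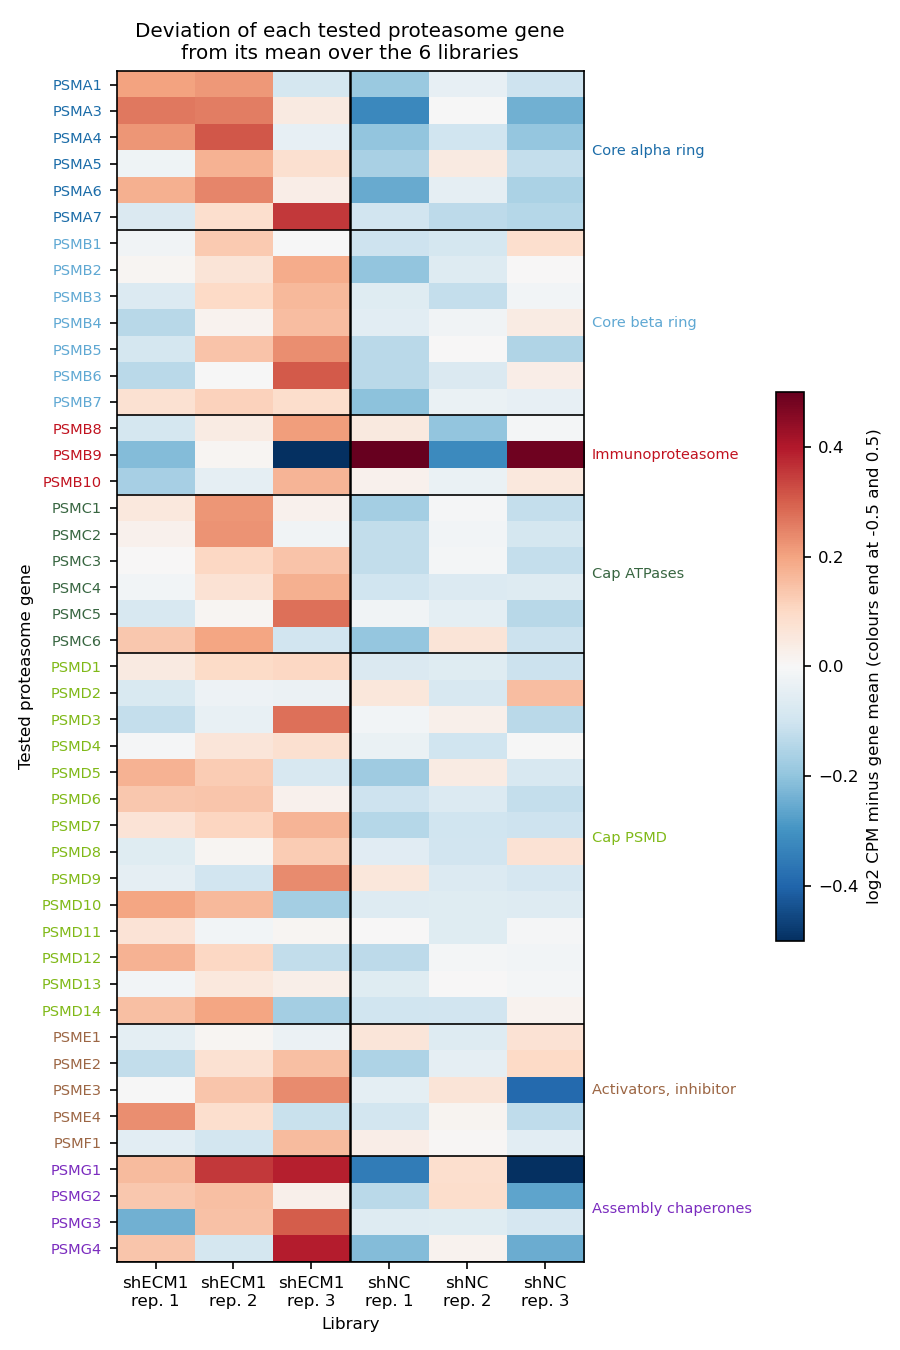
Deviation of each tested proteasome gene (rows, by role) from its own mean over the 6 libraries (columns, shECM1 left and shNC right), in log2 CPM, with red above and blue below the mean. Median deviations were -0.003 to 0.10 in the shECM1 libraries and -0.10 to -0.05 in the shNC libraries, and within shECM1 replicate 3 some members of the same ring lie above their mean and others below it.

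Within the core particle, the median log2 fold change was larger in the alpha ring than in the beta ring, by a margin that depended on the processing. With a GC offset, which removes each library's trend on transcript GC content, the medians were 0.24 in the alpha ring and 0.20 in the beta ring. Of its 8 genes, 6 were tested, all 6 were above 0 on the log2 fold change scale, and the median without the offset was 0.28. The ring's summed level was 1307 ± 49.6 CPM in shECM1 and 1079 ± 51.2 CPM in shNC (SD, n = 3 each). PSMA8, a testis form of the alpha ring, had 0 counts in every library. PSMA2 had only 1 to 5 counts per library and was not tested; 781 of its exonic bases are shared with another gene on the same strand in GENCODE release 29, which itself had 0 or 1 counts. The count of PSMA2 is therefore not read as its level, and the part of the shared bases in it was not tested.

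PSMA3, which had the highest log2 fold change in the ring, stood at 175.6, 174.6 and 150.7 CPM in shECM1 replicates 1, 2 and 3, and at 116.8, 145.9 and 123.8 CPM in shNC replicates 1, 2 and 3. The groups did not overlap, and the closest libraries were shECM1 replicate 3 and shNC replicate 2. Its log2 fold change was 0.37 ± 0.12 (SE), 0.49 without shNC replicate 2 and 0.27 with the GC offset. PSMA4 and PSMA6, which like PSMA3 are structural subunits, were next, at 0.33 ± 0.11 and 0.30 ± 0.10 (SE), also without overlap. The order depended on the processing. With the GC offset PSMA4 and PSMA6 were at 0.23 and 0.24, and PSMA7 was the highest of the ring at 0.33.

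PSMA7, the most abundant alpha subunit, was at 305.9, 340.7 and 411.1 CPM in shECM1 replicates 1, 2 and 3, against 301.1, 294.0 and 291.6 CPM in shNC. All shECM1 libraries were above all shNC libraries, but shECM1 replicate 1 by little, and shECM1 replicate 3 carried much of the difference of 0.25 ± 0.12 (SE). Without that library the log2 fold change was 0.13, and with the GC offset on all 6 libraries it was 0.33. PSMA5, with the lowest log2 fold change of the ring, was at 174.4, 199.8 and 187.2 CPM in shECM1 and at 158.0, 182.6 and 162.9 CPM in shNC. Its groups overlapped, and the log2 fold change was 0.16 ± 0.10 (SE), with 0.03 under the GC offset and 0.11 to 0.24 when single libraries were left out. PSMA1 also overlapped, at 0.22 ± 0.11 (SE).

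All 7 constitutive genes of the beta ring were tested. The log2 fold change was above 0 in all 7, and in 5 without shECM1 replicate 3. The median was 0.13, with a summed level of 1243 ± 86.8 CPM in shECM1 and 1146 ± 53.5 CPM in shNC (SD, n = 3 each). The sums overlapped, because shNC replicate 3 (1200 CPM) was above shECM1 replicate 1 (1150 CPM). PSMB1, a structural subunit and the most abundant of the ring, was at 259.7, 288.0 and 262.9 CPM in shECM1 and at 244.8, 248.0 and 278.7 CPM in shNC, which overlapped. PSMB4, another structural subunit, had the lowest log2 fold change, 0.03 ± 0.10 (SE), with 183.6, 204.6 and 224.9 CPM in shECM1 and 194.7, 199.6 and 208.1 CPM in shNC. Its lowest and its highest library were both shECM1 libraries. PSMB2 had groups that did not overlap, at 0.17 ± 0.10 (SE), and PSMB3 overlapped at 0.13 ± 0.10 (SE).

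The catalytic subunits were examined in pairs, each constitutive subunit with the immunosubunit that can take its place. PSMB5, which cuts after hydrophobic residues, was at 103.1, 121.1 and 128.7 CPM in shECM1 replicates 1, 2 and 3, and at 99.9, 109.8 and 98.7 CPM in shNC replicates 1, 2 and 3. The groups overlapped through shECM1 replicate 1 and shNC replicate 2. PSMB5 had a log2 fold change of 0.20 ± 0.11 (SE), the highest of the beta ring. Its counterpart PSMB8 was at 26.3, 28.8 and 32.4 CPM in shECM1 and at 28.9, 24.4 and 27.8 CPM in shNC. These groups overlapped too, with a log2 fold change of 0.11 ± 0.13 (SE).

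PSMB6, which cuts after acidic residues, was at 187.4, 205.1 and 254.5 CPM in shECM1 and at 187.0, 195.7 and 210.6 CPM in shNC. Only shECM1 replicate 3 stood above the shNC range, and the log2 fold change of 0.13 ± 0.12 (SE) became -0.0094 without that library. Its counterpart PSMB9 was the immunosubunit with the lowest level and the member with the lowest log2 fold change. It was at 4.57, 5.36 and 3.66 CPM in shECM1 replicates 1, 2 and 3, and at 7.95, 4.24 and 7.52 CPM in shNC replicates 1, 2 and 3, from 46 to 105 counts per library. The libraries shNC replicates 1 and 3 were high, and shNC replicate 2 lay among the shECM1 libraries. The log2 fold change was -0.53 ± 0.27 (SE), and -0.75 without shNC replicate 2. Without that library edgeR called PSMB9 lower (adjusted p = 0.0281), as it did 14.1% of all genes, and DESeq2 did not (adjusted p = 0.0539). With all 6 libraries edgeR did not call PSMB9 (adjusted p = 0.267).

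PSMB7, which cuts after basic residues, was at 201.1, 206.9 and 203.0 CPM in shECM1 and at 165.6, 186.4 and 185.5 CPM in shNC, without overlap. Its log2 fold change was 0.19 ± 0.10 (SE). Its counterpart PSMB10 was at 33.1, 35.9 and 41.7 CPM in shECM1 and at 37.6, 36.3 and 38.5 CPM in shNC. The shNC libraries lay inside the range of the shECM1 libraries, and the log2 fold change of -0.02 ± 0.12 (SE) had no stable sign across settings. PSMB11, the catalytic subunit of the thymus, had 0 counts in every library. PSMB8 and PSMB9 share 139 exonic bases on opposite strands, and PSMB10 shares 644 exonic bases with another gene on its strand that had 8 to 14 counts. Whether counting used strand is not given in the sources used here. Strand could not separate the PSMB10 overlap, which covers 34.75% of its exonic bases. How many reads of these genes were left out or assigned elsewhere was not examined.

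**Figure D3:**
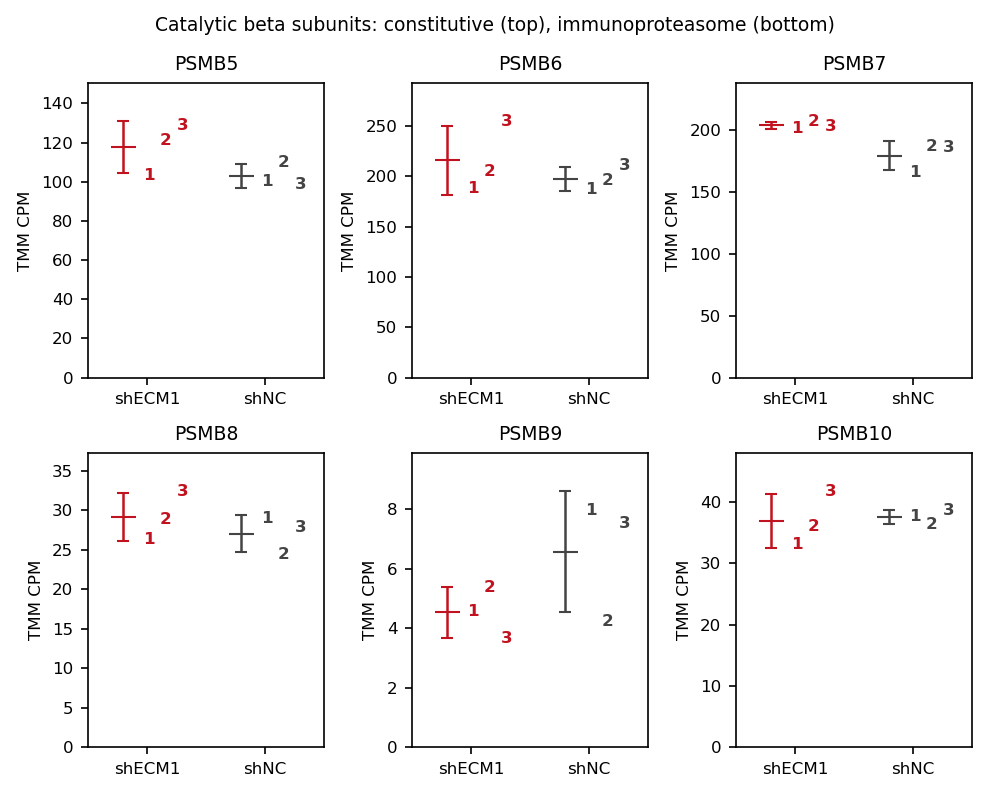
Levels (TMM CPM, vertical axes from 0) of the 3 constitutive catalytic subunits (top row) and their immunoproteasome counterparts (bottom row), with shECM1 left and shNC right; the digits are replicate numbers, and the bars are mean ± SD with n = 3. PSMB7 does not overlap between the groups, whereas PSMB9 is high in shNC replicates 1 and 3 and low in shNC replicate 2 at 4.24 CPM.

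Per kilobase of transcript, the 3 immunosubunits held a minor share of the catalytic subunit RNA. The share of PSMB8, PSMB9 and PSMB10 in the sum of all 6 catalytic genes was 10.0%, 10.2% and 10.1% in shECM1 replicates 1, 2 and 3, and 12.5%, 10.1% and 11.4% in shNC replicates 1, 2 and 3. The means were 10.1% ± 0.0827 in shECM1 and 11.4% ± 1.21 in shNC (SD, n = 3 each). The shECM1 libraries were nearly equal, shNC replicates 1 and 3 were higher, and shNC replicate 2 lay between the shECM1 libraries. Within the pairs, PSMB8 made up 22.7%, 21.5% and 22.5% of PSMB8 plus PSMB5 in shECM1, and 25.0%, 20.4% and 24.5% in shNC. PSMB9 made up 2.59%, 2.77% and 1.54% of PSMB9 plus PSMB6 in shECM1, and 4.43%, 2.30% and 3.74% in shNC. PSMB10 made up 11.7%, 12.3% and 14.2% of PSMB10 plus PSMB7 in shECM1, and 15.5%, 13.5% and 14.3% in shNC. In all 3 pairs the groups overlapped, in PSMB8 and PSMB9 through shNC replicate 2 and in PSMB10 through shECM1 replicate 3 and shNC replicate 2. Division by length assumes coverage along the whole transcript, and the labels' protocols also describe a 3' single-cell kit.

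Neighbours and regulators of the immunoproteasome genes differed in both directions. TAP1, a subunit of the peptide transporter that shares an upstream region with PSMB9, was at 29.2, 30.0 and 28.0 CPM in shECM1 replicates 1, 2 and 3, and at 37.9, 29.2 and 38.1 CPM in shNC replicates 1, 2 and 3. IRF1, an interferon-responsive transcription factor, was at 42.5, 41.6 and 36.7 CPM in shECM1 and at 49.8, 41.0 and 65.9 CPM in shNC. In both genes, as in PSMB9, shNC replicate 2 stood beside the shECM1 libraries. The log2 fold changes were -0.27 ± 0.13 for TAP1 and -0.38 ± 0.16 for IRF1 (SE). Without shNC replicate 2 they were -0.37 for TAP1 and -0.51 for IRF1. There edgeR called both lower (adjusted p = 0.0407 and 0.0187), as it did 14.1% of all genes. With all 6 libraries edgeR called neither (adjusted p = 0.259 and 0.204). NLRC5, the transactivator of MHC class I genes, differed in the opposite direction, at 7.45, 5.96 and 7.98 CPM in shECM1 and 4.23, 6.82 and 3.94 CPM in shNC, with a log2 fold change of 0.50 ± 0.25 (SE). Leaving out single libraries gave 0.35 to 0.81 for NLRC5, the highest without shNC replicate 2. There edgeR called NLRC5 higher (adjusted p = 0.0218), as it did 9.73% of all genes. With all 6 libraries edgeR did not call NLRC5 (adjusted p = 0.252). TAP2, ERAP1 and B2M had log2 fold changes from -0.13 to 0.21. Blood cells carry immunoproteasomes, and the summed level of the 12 leukocyte markers was 50.2 to 79.6 CPM in shECM1 and 77.5 to 195.6 CPM in shNC. Most of that sum was CD68, at 41.4 to 71.9 CPM in shECM1 and 68.9 to 175.2 CPM in shNC, so it is not read as a leukocyte level. Of the 12 markers, 3 were tested and all 3 were lower in shECM1. PTPRC and HLA-DRA were among the 4 with 0 counts in every library. A part of blood cells in the immunoproteasome values was not tested.

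All 6 PSMC genes, the ATPases of the cap, were tested. Their log2 fold changes ran from 0.14 to 0.20 in the fit of all 6 libraries, with a median of 0.16. The range was wider without shECM1 replicate 3, at 0.03 to 0.24, and with the GC offset, where it ran from 0.02 for PSMC6 to 0.30 for PSMC3. Their summed level was 976, 1059 and 1034 CPM in shECM1 replicates 1, 2 and 3, and 890, 955 and 894 CPM in shNC replicates 1, 2 and 3, without overlap. PSMC1 had the highest log2 fold change, at 190.1, 213.4 and 185.6 CPM in shECM1 and 162.8, 182.3 and 168.6 CPM in shNC, also without overlap. Of its exonic bases, 75.8% are overlapped by NRDE2 on the opposite strand, which had 200 to 311 counts per library. PSMC3, the most abundant, was at 197.9, 212.2 and 218.0 CPM in shECM1 and 181.2, 195.9 and 181.7 CPM in shNC. Its groups did not overlap, and neither did those of PSMC4. PSMC5 had the lowest log2 fold change, 0.14 ± 0.11 (SE), at 183.9, 195.6 and 235.0 CPM in shECM1 and 191.8, 188.0 and 176.6 CPM in shNC, which overlapped.

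Of the 14 PSMD genes, the log2 fold change was positive in 13 and negative in 1, and its median was 0.10. PSMD7, a scaffold partner of the deubiquitinase PSMD14 in the lid, had both the highest level and the highest log2 fold change. It was at 366.0, 376.7 and 393.1 CPM in shECM1 replicates 1, 2 and 3, and at 316.0, 325.7 and 325.1 CPM in shNC replicates 1, 2 and 3. The groups were well apart relative to their spread, and the log2 fold change was 0.23 ± 0.09 (SE), with 0.21 to 0.26 when single libraries were left out. PSMD1, a scaffold of the base, and PSMD6, a lid subunit, also did not overlap, at 0.16 ± 0.09 and 0.19 ± 0.10 (SE).

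PSMD2, a large subunit of the base that docks ubiquitin shuttles, was the exception in the fit of all 6 libraries. It was at 317.1, 328.5 and 326.8 CPM in shECM1 and at 347.3, 315.9 and 371.2 CPM in shNC. The shNC replicates 1 and 3 were above every shECM1 library and shNC replicate 2 was below, with a log2 fold change of -0.09 ± 0.10 (SE). With the GC offset PSMD2 was at 0.02, and PSMD12 was instead the 1 negative PSMD gene, at -0.03. Without shECM1 replicate 3, 11 PSMD genes were positive and 3 negative. PSMD14 itself overlapped, at 0.13 ± 0.12 (SE), as did the ubiquitin receptor PSMD4 at 0.09 ± 0.09 (SE). PSMD5, PSMD9 and PSMD10, which chaperone assembly of the base and are absent from the finished particle, had log2 fold changes of 0.15, 0.07 and 0.14, all with overlap. PSMD9 was the least abundant of the PSMD genes, at 20.7 ± 2.65 CPM in shECM1 and 19.7 ± 1.06 CPM in shNC (SD, n = 3 each).

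Among the activators and the inhibitor, the log2 fold change was positive in 4 of 5, the median was 0.07, and the groups overlapped in all 5. The median was 0.04 with the GC offset and 0.01 to 0.12 when single libraries were left out, the lowest without shECM1 replicate 3, where 3 of 5 were positive. PSME1, a subunit of the interferon-inducible activator, was at 116.7, 121.6 and 118.2 CPM in shECM1 and at 126.1, 115.6 and 127.2 CPM in shNC, with a log2 fold change of -0.05 ± 0.10 (SE). Its partner PSME2 was at 77.9, 89.6 and 94.3 CPM in shECM1 and at 76.3, 82.5 and 91.0 CPM in shNC, with 0.07 ± 0.12 (SE), 0.23 under the GC offset and 0.01 to 0.15 when single libraries were left out. Both overlapped. PSME3, the nuclear activator, was at 73.8, 81.4 and 87.2 CPM in shECM1 and at 71.4, 77.4 and 56.5 CPM in shNC. Here shNC replicate 3 was low and shNC replicate 2 lay inside the shECM1 range, with a log2 fold change of 0.24 ± 0.13 (SE), and 0.12 without shNC replicate 3. PSME4, which binds acetylated histones and opens the core, overlapped at 0.14 ± 0.11 (SE). PSMF1, a proteasome inhibitor, was at 132.1, 128.7 and 153.1 CPM in shECM1 and at 140.1, 137.8 and 132.0 CPM in shNC, with 0.01 ± 0.10 (SE).

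The highest log2 fold change of the family was that of an assembly chaperone, PSMG1. PSMG1 pairs with PSMG2, and PSMG3 with PSMG4, to guide assembly of the alpha ring. PSMG1 was at 50.1, 57.4 and 58.8 CPM in shECM1 replicates 1, 2 and 3, and at 35.2, 47.5 and 28.9 CPM in shNC replicates 1, 2 and 3. The groups did not overlap, and shNC replicate 2 was the closest control. The mean was 55.5 ± 4.67 CPM in shECM1 and 37.2 ± 9.48 CPM in shNC (SD, n = 3 each), a fitted 1.49-fold difference. The log2 fold change was 0.58 ± 0.17 (SE), and leaving out single libraries gave 0.42 to 0.81. PSMG2 was at 79.1, 80.2 and 73.4 CPM in shECM1 and at 65.6, 76.7 and 60.1 CPM in shNC. It overlapped only through shNC replicate 2, with 0.20 ± 0.12 (SE).

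PSMG3 was at 23.5, 30.8 and 34.4 CPM in shECM1 and at 26.6, 26.6 and 26.3 CPM in shNC, so that shECM1 replicate 1 lay below all shNC libraries, with a log2 fold change of 0.16 ± 0.15 (SE). PSMG4 overlapped as well, at 0.30 ± 0.16 (SE). The median of the 4 was 0.25, and 0.36 without shNC replicate 2. POMP, the maturation chaperone of the beta ring, was at 183.6, 172.8 and 118.1 CPM in shECM1 and at 114.8, 143.9 and 129.8 CPM in shNC. Its shECM1 replicate 3 lay within the shNC range, and the log2 fold change was 0.29 ± 0.16 (SE), with 0.18 to 0.46 when single libraries were left out and 0.12 under the GC offset.

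**Figure D4:**
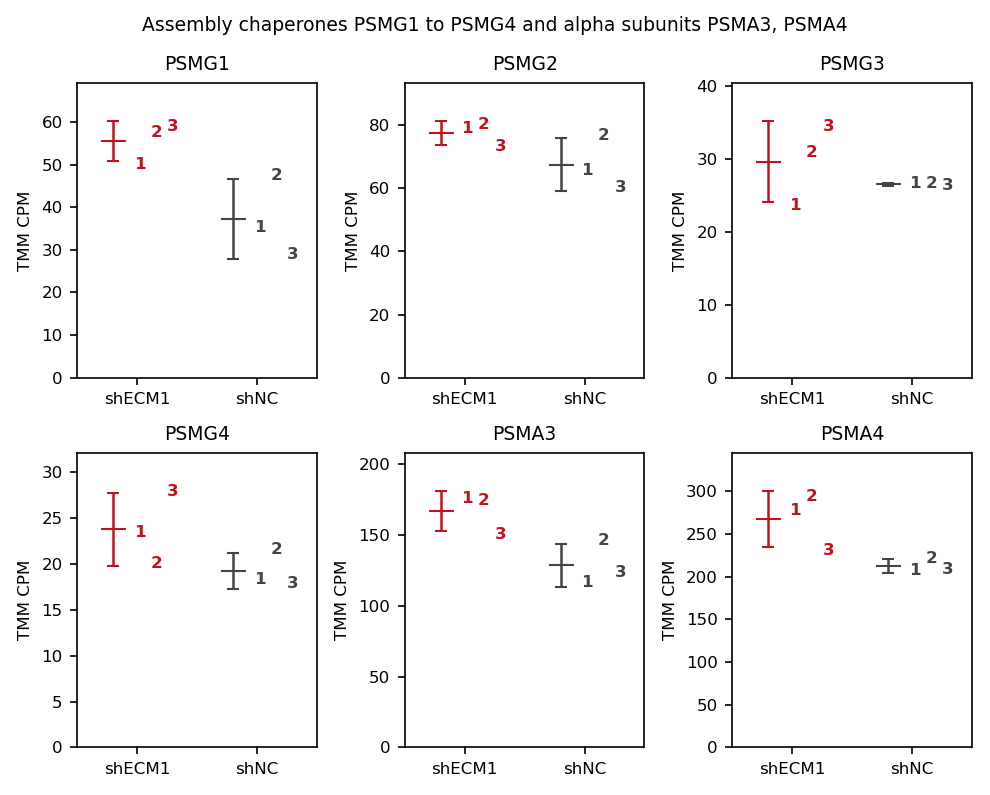
Levels (TMM CPM, vertical axes from 0) of the 4 alpha-ring assembly chaperones and of the alpha subunits PSMA3 and PSMA4, with shECM1 left and shNC right; digits are replicate numbers, and bars are mean ± SD with n = 3. PSMG1, PSMA3 and PSMA4 do not overlap between the groups, and the highest shNC library of PSMG1 is replicate 2 at 47.5 CPM.

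Proteasome partners outside the symbol rule were read from a list of 35 genes, all tested. Of these, 21 were positive and 14 negative on the log2 fold change scale. The median was 0.04, and edgeR called 0 (0% of all genes). Without shNC replicate 2, edgeR called 6 higher (9.73% of all genes) and 4 lower (14.1%), and DESeq2 called 6 higher (8.45%) and 3 lower (12.5%). With all 6 libraries, at an unadjusted p under 0.05, 3 were higher (8.31% of all genes) and 1 was lower (14.2% of all genes). With all 6 libraries DESeq2 called 0 (1.04% of all genes higher and 5.13% lower). TXNL1, a thioredoxin-like protein bound to the cap, was at 58.4, 60.0 and 50.9 CPM in shECM1 and at 40.9, 46.2 and 43.2 CPM in shNC, and its log2 fold change was 0.38 ± 0.12 (SE). UCHL5, a deubiquitinase of the cap, was at 97.2, 97.5 and 84.9 CPM in shECM1 and at 72.1, 80.9 and 67.7 CPM in shNC, at 0.34 ± 0.11 (SE). Neither gene overlapped between the groups, and both belong to the proteasome-bound enzymes, all 6 of which had positive values.

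NFE2L1, the transcription factor that raises proteasome genes when the proteasome is inhibited, was lower in every shECM1 library, at 272.4, 258.2 and 273.7 CPM, against 305.5, 281.3 and 293.2 CPM in shNC. In 13.2% of all genes tested, all shECM1 libraries lay below all shNC libraries. The log2 fold change of NFE2L1 was -0.13 ± 0.09 (SE), opposite in sign to most subunit genes. That sign reversed when the GC offset was used without shNC replicate 2. A part of NFE2L1 in the members' differences was not tested. DDI2 and NGLY1, which process the NFE2L1 protein, had log2 fold changes of 0.01 and -0.18, and NFE2L2, a related factor, -0.11. ADRM1, a ubiquitin receptor of the cap, was at 113.4, 120.8 and 157.8 CPM in shECM1 and at 125.2, 123.5 and 128.3 CPM in shNC. Its highest and its lowest libraries were both shECM1 libraries, at 0.06 ± 0.13 (SE).

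Members deviated along the base composition of their transcripts in several libraries. The Pearson r between GC content and a library's difference from the mean of the other libraries of its group was -0.66, -0.38 and 0.66 in shECM1 replicates 1, 2 and 3, and 0.39, -0.36 and 0.18 in shNC replicates 1, 2 and 3. The library shECM1 replicate 3 was the highest of the shECM1 libraries in 23 members and the lowest in 15. In the 15 members of lowest GC content (36.8% to 45.8%), its median difference from the mean of shECM1 replicates 1 and 2 was -0.22 (log2 CPM), and 4 members were above. In the 15 of highest GC content (53.1% to 60.1%), the median was 0.15, and 13 were above. Over the 45 members, which share these libraries, the Spearman rho of this difference with GC content was 0.64. Over the 12502 tested genes with a GC value it was 0.54. The Pearson r was 0.66 over the members and 0.47 over those genes. The log2 fold change itself had a Pearson r of -0.33 with GC content over the members and of -0.37 over those genes. With the GC offset the median log2 fold change of the members was 0.18, 42 were positive and 3 negative, and 18 were higher at an unadjusted p under 0.05 (11.5% of all genes) and 0 lower (11.1%), while edgeR called 0 members and 0 genes after adjustment. Under the same offset the core stood at 0.22, the cap at 0.13 and the assembly chaperones at 0.36, and the immunoproteasome median became 0.18.

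**Figure D5:**
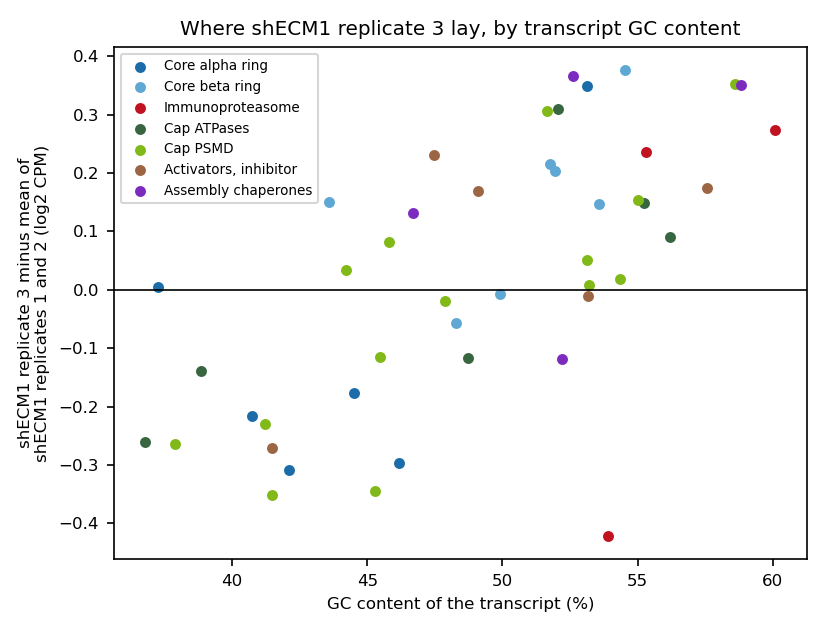
Difference of shECM1 replicate 3 from the mean of shECM1 replicates 1 and 2 (log2 CPM, vertical axis) against transcript GC content (percent, horizontal axis) for the 45 tested proteasome genes, coloured by role. The 15 members of lowest GC content have a median of -0.22 and the 15 of highest GC content a median of 0.15.

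Spread between replicates differed by group. The median SD of a member was 0.13 (log2 CPM) in shECM1 and 0.08 in shNC, where the 1451 genes of similar level had 0.11 in shECM1 and 0.12 in shNC. Levels differed widely between roles in the CPM of both groups together, which are not corrected for length. The lowest tested member was PSMB9, with a mean of 5.55 CPM over the 6 libraries, and the highest PSMD7, with 350.5 CPM. Per kilobase, PSMA7, PSMB1 and PSMB6 had 354, 291 and 253 CPM in shECM1 and 297, 277 and 232 CPM in shNC, while PSMB9 had 5.79 CPM in shECM1 and 8.40 CPM in shNC.

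Because most members shared the sign of their fold change, the stretch before their start sites was read for shared motifs. RefSeq promoter windows (build GRCh38.p14) were found for 42 of the 48 members, with 51 windows in all, and 250 bases before each start were searched on both strands for 8 motifs. The core of the antioxidant response element bound by NFE2L1 and NFE2L2, TGACNNNGC, was in 25.5% of the members' windows, in 11.6% of the windows of all genes tested and in 10.9% of all 35116 windows. The ETS motif CCGGAAG was in 21.6% of the members' windows and 14.0% of those of all genes tested. The CCAAT box was in 37.3% and 32.8%, and the gamma-activated motif TTCNNNGAA in 13.7% and 5.39%. The core of the interferon-stimulated response element, spelled GAAA, any 2 bases and GAAA, was in 9.80% and 2.26%, and the 5 members with it were PSMA4, PSMB4, PSMB10, PSME2 and PSMG4. The nuclear respiratory factor site (GCGCA, any 1 base and GCGC), the AP-1 site TGANTCA and the E-box CACGTG were in 9.80%, 5.88% and 5.88% of the members' windows and in 8.64%, 4.54% and 8.17% of those of all genes tested. TGANTCA can overlap TGACNNNGC. The members' windows include those of PSMA2, PSMA8 and PSMB11, which were not among the genes tested, so the sets compared are not alike. Matches in these windows count in the members' shares. They were TTCNNNGAA and CCAAT in PSMA2, TTCNNNGAA and CCGGAAG in PSMA8, and CCAAT in PSMB11. A match is a description of these letters and not a bound site.

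The windows of the members with the highest log2 fold change among the chaperones and the alpha subunits, of the lowest member and of 2 interferon-inducible members are shown, 5′ to 3′ on the gene's strand. Capitals mark TGACNNNGC and CCAAT on either strand in the first 3, and the interferon-stimulated core in the last 2. They lie at chr21:39183581-39183701 (minus strand, PSMG1), chr14:58244743-58244842 (plus strand, PSMA3), chr6:32853942-32854062 (plus strand, PSMB9), chr16:67936851-67936950 (minus strand, PSMB10) and chr14:24146611-24146710 (minus strand, PSME2).
PSMG1: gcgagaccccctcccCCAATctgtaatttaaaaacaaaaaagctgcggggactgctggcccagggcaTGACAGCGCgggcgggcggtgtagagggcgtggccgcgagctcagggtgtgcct
PSMA3: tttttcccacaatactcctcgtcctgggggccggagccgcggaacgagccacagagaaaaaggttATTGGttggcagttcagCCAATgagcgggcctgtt
PSMB9: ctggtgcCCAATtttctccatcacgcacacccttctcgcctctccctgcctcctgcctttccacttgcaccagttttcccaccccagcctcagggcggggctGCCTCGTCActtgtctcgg
PSMB10: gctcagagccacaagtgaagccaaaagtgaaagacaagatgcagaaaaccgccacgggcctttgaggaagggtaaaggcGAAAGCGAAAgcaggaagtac
PSME2: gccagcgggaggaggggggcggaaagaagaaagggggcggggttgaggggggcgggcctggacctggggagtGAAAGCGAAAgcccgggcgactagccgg
PSMG1 and PSMB9, at the opposite ends of the fold changes, both carried 1 match to each of TGACNNNGC and CCAAT in the stretch shown. PSMA3 carried 2 CCAAT boxes on opposite strands and no TGACNNNGC, while PSMB10 and PSME2 both carried the interferon-stimulated core close to the start and had log2 fold changes of -0.02 and 0.07, or 0.18 and 0.23 with the GC offset.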

How the data were processed

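The authors deposited 1 table of raw counts per gene and library, with whole numbers and no single-cell values. The submitters' processing notes name the tools STAR, featureCounts, fastp, Seurat and DESeq2 and the builds GRCh38 and hg38. No version, annotation or strand setting is given in the sources used here. Total RNA was extracted per the labels' protocols, which also describe droplet single-cell libraries; each column was analysed as 1 library. Columns were matched to sample titles by letter and number. This match is an inference: were the letters reversed, every direction would reverse. ECM1, the hairpin's target, was lower in every library read as shECM1 than in every library read as shNC, with a log2 fold change of -1.58. Whether replicates were grown separately is not given; p-values cover the spread among these 6 libraries, possibly technical.

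Symbols were found for 20462 of 20476 identifiers. Counts were filtered with filterByExpr, scaled by TMM and fitted in edgeR 4.0.16 (R 4.3.3) with the quasi-likelihood test on 12576 genes, threshold 0.05 after Benjamini-Hochberg adjustment. The SE is the absolute log2 fold change over the square root of F. DESeq2 1.42.0 ran on all genes with a count, limma-voom (limma 3.58.1) on the filtered genes. Log2 CPM used a prior count of 2. Lengths are those of GENCODE release 29 principal transcripts; GC content is that of the longest coding transcript. Of the members, 17 share exonic bases with another gene of the table and 12 have a pseudogene named after them; reads shared with these were not examined, and their counts are uncertain to that extent.

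Members, lists and naming rule were chosen with earlier results of these data known. Named were PSMB5 to PSMB10, PSME1 to PSME3, and in each role the members of highest and lowest log2 fold change and of highest level; from the partner list the 3 highest and 3 lowest, with NFE2L1, POMP and ADRM1. Some genes of that list are not reported here. The choice of any other named gene followed a look at its values. Alternatives were other scalings, count filters, tools, a replicate block, a GC offset and leaving out each library. DESeq2 and the GC offset without shNC replicate 2 were added after seeing the data.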

Additional observations from a re-analysis of the deposited data

How the results depend on the processing

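The medians of all members, core, cap, activators and assembly chaperones stayed above 0 under all 17 alternatives, and edgeR made no call with other scalings, with a stricter count filter (at least 50 in at least 3 samples) or with the GC offset. The call counts did depend on the settings. With no count filter edgeR called 505 of 16386 genes and 1 of 46 members. DESeq2 called 717 of the 11620 genes given an adjusted p and 1 of 45 members. Leaving out single libraries gave 0 to 3037 genes and 0 to 5 members. The highest counts came without shNC replicate 2, where 12730 genes and 45 members were tested. Without that library DESeq2 called 2681 of the 12775 genes given an adjusted p and 4 of 45 members. The GC offset without it called 3444 of 12730 genes (1789 higher, 1655 lower) and 13 of 45 members (12 higher, 1 lower). Replicate numbers did not pair the libraries (correlations of same-numbered deviations of -0.07, -0.05 and -0.18), and the fit with the replicate number as a block also called 0 genes and 0 members.

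The immunoproteasome median was 0.18 with the GC offset and 0.21 with the offset without shNC replicate 2, where the chaperone median was 0.45. The partner list's median was 0.065 with library size only, 0.010 with the GC offset, 0.013 with it and without shNC replicate 2, and 0.0015 to 0.073 when single libraries were left out. Without division by length the immunoproteasome share was 11.6% in shECM1 and 12.9% in shNC. With library size only the median deviations of shNC replicates 2 and 3 were -0.0094 and -0.16. Of 561 alternative values of named genes, 17 changed sign. PSMB10 was 0.0053 with library size only, 0.18 with the GC offset, 0.23 with it and without shNC replicate 2, and -0.12 to 0.057 when single libraries were left out. PSMF1 was -0.0061 and -0.0062 with the offset (with and without shNC replicate 2) and -0.066 to 0.065 when single libraries were left out. With the offset PSME1 was 0.035 and, without shNC replicate 2, 0.020, PSMD2 was 0.016, and NFE2L1 was 0.0014 without shNC replicate 2. Leaving out single libraries gave -0.0094 to 0.22 for PSMB6, -0.047 to 0.10 for PSMB4 and -0.10 to 0.15 for ADRM1, each negative without shECM1 replicate 3. Leaving out single libraries also moved PSMB8 (0.03 to 0.19), PSMC5 (0.03 to 0.22), PSMG3 (0.05 to 0.31) and PSMG2 (0.12 to 0.32) without a change of sign. The causes were not tested. Members' counts of 46 to 6323 per library leave PSMB9 the least precise, and with 3 libraries in each group the spread between libraries limits the rest.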
